A study of Mus musculus with 14 samples.

Results

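Fatty acid oxidation and ketone metabolism were examined in the caudal intervertebral discs (IVDs) of 2 mouse models of type 2 diabetes through 33 genes, chosen by name and sorted by role into import and activation, the chain-length enzymes, auxiliary enzymes, electron transfer, and ketones. The list was drawn up with earlier results of these data known. All 33 were found among the 55487 genes of the count table. The db/db mice were homozygous for a mutation of the leptin receptor gene *Lepr* in every cell and received no treatment, and their controls were heterozygous db/+ littermates, which carry 1 mutant allele. Both were male and 3 months old. The STZ-HFD mice were male C57BL/6J mice that were skeletally mature at the start, ate a high-fat diet for 4 to 6 weeks, received 1 injection of 100 mg/kg streptozotocin (STZ), which damages the insulin-producing β-cells, and stayed on the diet for a further 12 weeks. The labels and the study's methods give different fat contents for this diet. The controls of the STZ-HFD mice (Con+Veh) ate chow and received the citrate buffer alone, and the labels call them wild type. By the study's methods they too were male C57BL/6 mice, skeletally mature at the start. The db groups had 3 mice each and the other groups 4 each, and each library held RNA of several tail discs pooled from 1 mouse.

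Fatty acids are oxidized in mitochondria in steps. A fatty acid is joined to coenzyme A, passed across the inner membrane on carnitine, and shortened by repeated rounds of dehydrogenation, hydration, a further dehydrogenation and thiolysis, with different enzymes for long, medium and short chains. The electrons pass through the electron transfer flavoprotein to the respiratory chain, and the acetyl-CoA enters the citric acid cycle or, in the liver, becomes ketone bodies that other tissues burn. The pathway is most active in heart, oxidative skeletal muscle, liver and brown fat, and many of its genes are known targets of the fatty acid receptor PPARα and of the estrogen-related receptors (ERR). The disc has few blood vessels and is known mainly for glycolytic energy supply.

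Because PPARα binds a direct repeat with 1 base between its half-sites (DR1), and the ERR factors a single extended half-site, both elements were looked for near the start sites. RefSeq windows on GRCm38.p6, from 250 bases before to 50 bases after a start, were given for 26 of the 33 genes (30 windows). The genes with no window were *Cpt1b*, *Crat*, *Acaa2*, *Decr1*, *Acot13*, *Hsd17b4* and *Acat1*. The DR1 search used AGGTCANAGGTCA on both strands with at most 2 mismatches. It matched in 4 of the 30 windows (13.3%) and in 3.86% of all 32851 windows. These are the 4 matches, printed in the direction of the gene with the element in capitals and 8 flanking bases on each side:
Ucp3, chr7:100472932-100472960, plus strand, first element base 51 bases before the start: tcagaattAGGTTTCAGGTCAgctggtgc
Slc25a20, chr9:108662134-108662162, plus strand, first element base at base 7 of the transcript: ctgaatgtAGGTGAAAGGTCGgcggagcc
Echs1, chr7:140116484-140116512, minus strand, 83 bases before the start: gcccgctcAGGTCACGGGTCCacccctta
Etfa, chr9:55512300-55512328, minus strand, 77 bases before the start, element on the opposite strand to the gene: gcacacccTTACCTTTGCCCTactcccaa
The ERR search used TCAAGGTCA, without mismatches, on both strands. Its last 6 bases are the half-site of the DR1 search, so a single stretch can count for both. It matched in 1 of the 30 windows and in 0.423% of all windows, and that match is shown because it was the only one:
Acsl6, chr11:54303649-54303673, plus strand, first element base 167 bases before the start, element on the opposite strand to the gene: ctccaaccTGACCTTGAgcattctt
*Hadha* and *Hadhb*, which encode the subunits of one protein complex, are transcribed away from each other from starts 85 bases apart. The interval between the annotated genes is shown as the stretch both genes have next to their starts:
Hadha-Hadhb, chr5:30155163-30155247, plus strand: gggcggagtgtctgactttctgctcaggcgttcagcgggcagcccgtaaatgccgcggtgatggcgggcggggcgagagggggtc
G and C made up 69.4% of it. A match is a stretch of letters, and no binding was measured in these discs.

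The authors deposited counts without normalization. Totals were 16076908 to 58943169 counts per library, of which 28.1% to 60.2% fell on ribosomal RNA genes, and 3 counts in a library corresponded to 0.0509 to 0.187 CPM (counts scaled to a library total of 1000000) before scaling, for counting error only. Levels are given as CPM scaled with TMM factors, and as CPM per kilobase of exon (RPKM) where genes are compared. Genes above 1 CPM in at least 3 libraries were tested with limma's voomWithQualityWeights and Benjamini-Hochberg adjustment over all 16915 such genes, and calls required an adjusted p under 0.05 together with a log2 fold change of 1 or more in either direction. The quality weights ran from 0.27 (Con+Veh replicate 1) to 3.05 (Con+Veh replicate 3). The 13 disc and cartilage markers were present in all groups, at a summed 27986 to 80379 CPM in the db/+ and db/db libraries, 5768 to 19417 CPM in Con+Veh and 2216 to 4299 CPM in STZ-HFD, so both groups of the second cohort held far less of them. Within that cohort every STZ-HFD library also lay below every Con+Veh library. In STZ-HFD 9 of the 13 had negative log2 fold changes and 4 positive ones. Of the 13, 6 were called lower there, against 1.31% of all genes. In db/db 11 were negative and none was called.

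Skeletal muscle markers, 16 genes including *Acta1* and *Ckm*, were also present in every library and moved with the groups in opposite directions. Their summed level was 5336 to 10832 CPM in db/+ and 3539 to 5986 CPM in db/db. It was 9815 to 12935 CPM in Con+Veh and, in order of replicate, 10887, 26079, 28735 and 25113 CPM in STZ-HFD, so that replicate 1 lay within the Con+Veh range and the others lay above it. All 16 markers had negative log2 fold changes in db/db (1 called lower, against 0.432% of all genes). All 16 had positive ones in STZ-HFD (7 called higher, against 1.30% of all genes). In bulk tissue, fewer cells of a type and less RNA per cell cannot be told apart. The fits were therefore also run with the mean log2 CPM of these 16 genes in the model as a covariate. Single-gene values from that fit are given only for members: some in the text, and all tested ones in the plot without and with the covariate. Values for the other gene lists, including the regulators and their known targets, are given only without it.

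Of the 32 members tested, 7 rose in STZ-HFD discs relative to Con+Veh discs: *Slc25a20* and *Mlycd* of the import group, *Acadl*, *Acadm* and *Acaa2* of the chain-length enzymes, the auxiliary enzyme gene *Decr1*, and *Ucp3*. This was against 1.30% of all genes tested called higher in that comparison. None fell, against 1.31%. A positive log2 fold change was found for 30 of the 32 members, against 47.2% of all genes, and the median was 0.76, against -0.04 over all genes. At an adjusted p under 0.05 with no minimum fold, 11 members were higher, against 1.65%, and at an unadjusted p under 0.05 it was 21, against 8.34%. The 4 STZ-HFD libraries lay above all 4 Con+Veh libraries for 9 members, against 1.97%. Because the members were chosen with earlier results of these data known, the shares set beside them are description only. The study itself reports *Mlycd*, *Acadl*, *Acadm*, *Acaa2* and *Decr1* as increased in these STZ-HFD discs. In db/db discs no member was called in limma's test, against 1.23% of all genes called higher and 0.432% called lower. There, 22 members had positive and 10 negative log2 fold changes, against 47.3% of all genes positive, with a median of 0.16, and at an unadjusted p under 0.05 3 were higher and 1 was lower, against 10.7% and 10.4%. With edgeR and DESeq2 the db/db count was also 0, with 1 member at an unadjusted p under 0.05 in each. The edgeR test called 0 genes higher and 0 lower in db/db among all 16915, so its member count could only be 0. DESeq2 called 160 genes higher and 52 lower there.

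The STZ-HFD calls depended on the test and on 3 libraries. The count was 0 of 32 with edgeR's quasi-likelihood test (13 at an unadjusted p under 0.05), which called 6 genes higher among all 16915. It was 0 with voom without quality weights, which called 3 genes higher, and 6 with DESeq2, which called 123. It was 0 when Con+Veh replicate 3, Con+Veh replicate 4 or STZ-HFD replicate 3 was left out, and those fits called only 3 to 4 genes higher in total. The positive direction of the 7 genes was kept in every one of these fits.

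**Figure D1:**
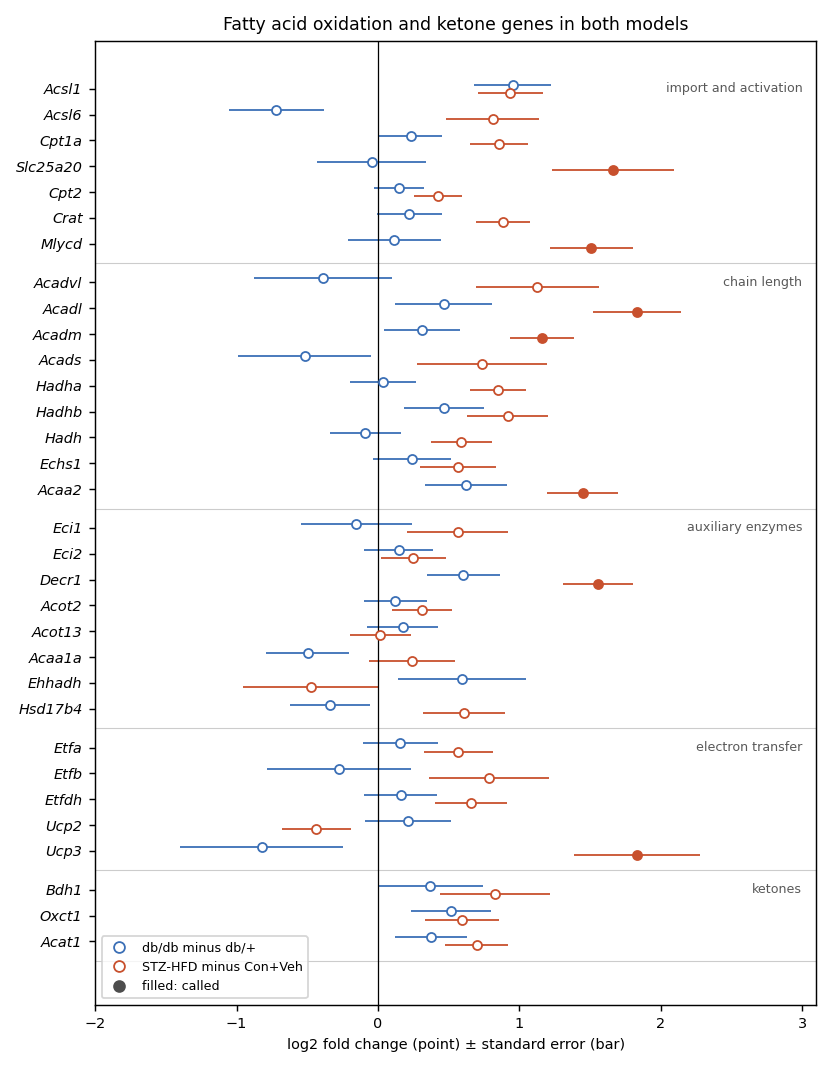
Log2 fold change ± standard error from limma for the 32 tested genes, grouped by role, in db/db minus db/+ (blue) and STZ-HFD minus Con+Veh (orange), with called genes filled. In STZ-HFD 30 of 32 points lie right of 0 and 7 are filled, and in db/db 22 lie right of 0 and none is filled.

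The import and activation group holds the genes that bring fatty acids to the matrix. All 7 tested members had positive log2 fold changes in STZ-HFD, from 0.42 to 1.66 with a median of 0.88. Of them 2 were called, against 1.30% of all genes called higher. All 7 had an unadjusted p under 0.05, against 8.34% of all genes higher. *Slc25a20* (ENSMUSG00000032602, chromosome 9 from 108662088 to 108684641 of GRCm38) encodes the carrier that exchanges acylcarnitine for carnitine across the inner mitochondrial membrane. Its level was 5.96, 4.5, 9.54 and 10.6 CPM in the STZ-HFD libraries and 2.91, 6.65, 1.93 and 2.88 CPM in Con+Veh, and 3.82, 2.74 and 6.08 CPM in db/db against 3.45, 6.14 and 2.94 CPM in db/+. STZ-HFD replicates 1 and 2 lay below Con+Veh replicate 2, so those groups overlapped, and the db groups covered the same range. The log2 fold change was 1.66 (SE 0.43, limma adjusted p = 0.0418) in STZ-HFD, the weakest of the 7 calls, and DESeq2 did not call it (adjusted p = 0.178). It was -0.05 (SE 0.38, limma adjusted p = 0.962) in db/db, where several settings turned the sign.

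*Mlycd* (ENSMUSG00000074064, chromosome 8 from 119394878 to 119411102) encodes malonyl-CoA decarboxylase, which removes the inhibitor of carnitine palmitoyltransferase 1. It was at 27.6, 25.4, 33.9 and 19.5 CPM in STZ-HFD and 4.59, 10.3, 8.08 and 12.3 CPM in Con+Veh, with no overlap. The db/db libraries had 5.02, 7.62 and 11.5 CPM and the db/+ libraries 5.68, 9.46 and 6.11 CPM, which overlapped widely. In limma, *Mlycd* had a log2 fold change of 1.51 (SE 0.30, limma adjusted p = 0.0134) in STZ-HFD and 0.12 (SE 0.33, limma adjusted p = 0.876) in db/db.

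Carnitine palmitoyltransferase 1, the entry step, is encoded by *Cpt1a*, the form of liver and many other cells, and *Cpt1b*, the form of muscle. *Cpt1a* passed the adjusted threshold but not the minimum fold in STZ-HFD (14.5 ± 1.88 to 27.3 ± 5.16 CPM, mean ± SD, n = 4, log2 fold change 0.85, limma adjusted p = 0.032), and its libraries did not overlap. The same held, with overlapping libraries, for *Acsl1*, which encodes an acyl-CoA synthetase (0.94, limma adjusted p = 0.0321), and *Crat*, which encodes carnitine acetyltransferase (0.88, limma adjusted p = 0.0208). *Cpt2*, the inner membrane transferase, had a log2 fold change of 0.42 (limma adjusted p = 0.189) and libraries that did not overlap. The second synthetase gene, *Acsl6*, had 0.81 in STZ-HFD (limma adjusted p = 0.192) and -0.72 in db/db (limma adjusted p = 0.228). In db/db, *Acsl1* came closest of all members to a call, with 136, 168 and 111 CPM against 73.1, 73.9 and 62.8 CPM in db/+, no overlap, and a log2 fold change of 0.95 (SE 0.27, limma adjusted p = 0.0718). It was called there with no filter on low counts and with the muscle covariate.

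*Cpt1b* (ENSMUSG00000078937, chromosome 15 from 89416405 to 89425863) failed the filter on low counts and is described apart because its deposited tables differed, a choice made after its values were seen. The gene table held 2 to 46 counts per library. In the GENCODE annotation, 81.4% of its exon bases also belong to the read-through gene *Gm44502* on the same strand, which stood at 0 counts in every library. The authors' estimated counts per transcript, summed over the 4 transcripts of *Cpt1b* and not scaled for depth, were 170.6, 158.8 and 102.2 in db/db and 79.1, 145.9 and 75.8 in db/+. They were 137.4, 395.0, 467.1 and 427.6 in STZ-HFD and 87.0, 192.3, 23.8 and 71.7 in Con+Veh. STZ-HFD replicate 1, the shallowest library, lay below Con+Veh replicate 2, and the other STZ-HFD libraries lay above all others. In the fit of the transcript totals the log2 fold change was 2.55 (SE 0.39, limma adjusted p = 0.00966) in STZ-HFD and 0.33 (SE 0.41, limma adjusted p = 0.71) in db/db. That fit called 4 members higher in STZ-HFD, *Cpt1b*, *Acadl*, *Hadha* and *Decr1*, of 30 among 14693 genes.

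**Figure D2:**
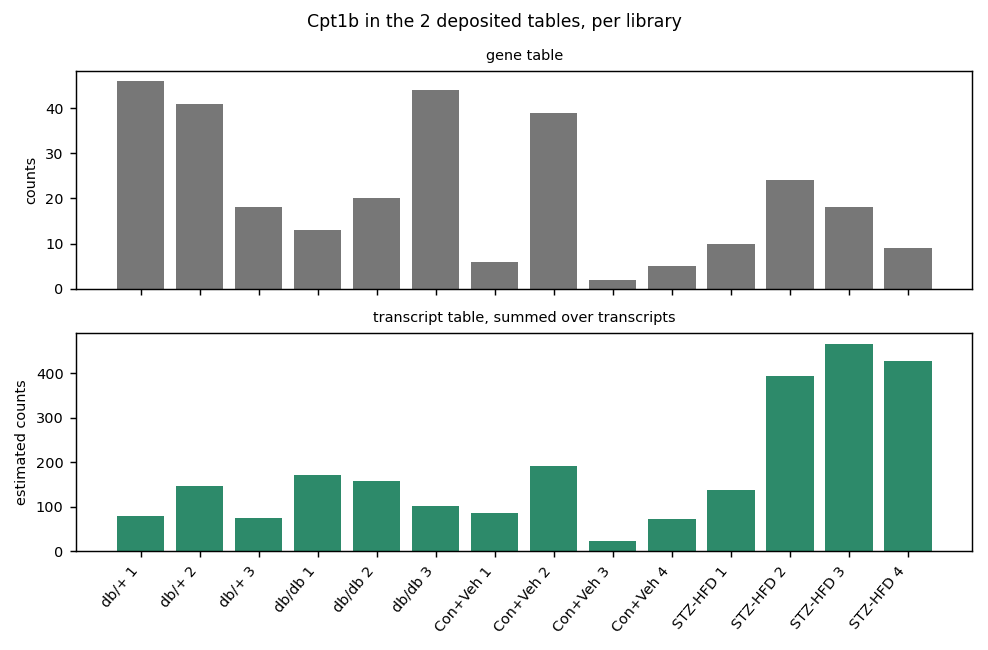
*Cpt1b* in each of the 14 libraries, as counts in the gene table (upper) and as estimated counts summed over its transcripts (lower), on linear axes from 0. The gene table stays between 2 and 46 counts, while the transcript table reaches 395.0 to 467.1 in STZ-HFD replicates 2 to 4.

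The tables differed for other members too. Over all libraries *Acsl1* had 76989 counts in the gene table and 991 estimated transcript counts, *Crat* 47436 and 1665, *Hadha* 57153 and 4357, *Cpt2* 7570 and 320, and *Acads* 1740 and 31. The transcript fit gave *Acsl1* a log2 fold change of -0.16 (SE 0.36) in db/db, opposite in sign to the gene table, and 0.88 (SE 0.33) in STZ-HFD. In the annotation 42.9% of the exon bases of *Acadvl* overlap *Dvl2* on the opposite strand and 58.3% of those of *Etfb* overlap other genes on its own strand, and the strand used in counting is not given in the sources used here. *Acot2* and *Acaa1a* have the near-identical copies *Acot1* and *Acaa1b*, so their counts are uncertain.

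The chain-length enzymes carry out the rounds of shortening. All 9 had positive log2 fold changes in STZ-HFD, from 0.56 to 1.83 with a median of 0.92. Of them 3 were called, against 1.30% of all genes called higher. The acyl-CoA dehydrogenase of long chains, *Acadl* (ENSMUSG00000026003, chromosome 1 from 66830839 to 66863277), was at 15.0, 27.9, 40.9 and 20.1 CPM in STZ-HFD and 2.61, 11.8, 8.55 and 6.25 CPM in Con+Veh. Its db/db libraries had 9.58, 6.37 and 7.86 CPM and its db/+ libraries 6.75, 5.18 and 5.21 CPM. The STZ-HFD libraries lay above all others, while 1 db/+ library lay within the db/db range. Its fitted log2 fold change was 1.83 (SE 0.31, limma adjusted p = 0.00658) in STZ-HFD and 0.47 (SE 0.34, limma adjusted p = 0.453) in db/db.

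*Acadm* (ENSMUSG00000062908, chromosome 3 from 153922357 to 153944632), for medium chains, was at 31.2, 25.5, 39.9 and 24.1 CPM in STZ-HFD and 14.8, 14.3, 14.5 and 11.2 CPM in Con+Veh. In db/db it was at 12.0, 7.39 and 8.33 CPM and in db/+ at 6.75, 9.08 and 5.83 CPM. Every STZ-HFD library exceeded every Con+Veh library, and the db groups overlapped. Its fitted log2 fold change was 1.16 (SE 0.23, limma adjusted p = 0.0139) in STZ-HFD and 0.31 (SE 0.27, limma adjusted p = 0.528) in db/db.

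*Acaa2* (ENSMUSG00000036880, chromosome 18), the thiolase that releases acetyl-CoA at the end of a round, was among the most abundant members. Its level was 53.9, 74.2, 133 and 83.6 CPM in STZ-HFD and 26.0, 56.3, 31.6 and 35.5 CPM in Con+Veh, where replicate 2 exceeded STZ-HFD replicate 1. The db/db libraries had 50.6, 41.7 and 41.5 CPM and the db/+ libraries 24.3, 41.1 and 22.0 CPM, separated only by the small gap above db/+ replicate 2. The log2 fold change was 1.45 (SE 0.25, limma adjusted p = 0.00763) in STZ-HFD and 0.62 (SE 0.29, limma adjusted p = 0.228) in db/db.

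Of the other 6 chain-length genes, *Hadha*, the large subunit of the trifunctional protein, passed the adjusted threshold without the minimum fold (91.8 ± 13.6 to 149.5 ± 29.2 CPM, n = 4, log2 fold change 0.85, limma adjusted p = 0.0271). Its partner *Hadhb*, across the 85-base interval printed above, had a nearly equal log2 fold change of 0.92 that missed the threshold (limma adjusted p = 0.0874). Per kilobase of merged exon the partners differed in level in the gene table, at 10.5 ± 1.55 RPKM for *Hadha* and 0.82 ± 0.35 RPKM for *Hadhb* in Con+Veh (n = 4). Over all libraries *Hadha* had 57153 gene counts but 4357 estimated transcript counts, and *Hadhb* had 3379 and 953. The size of the gap thus depended on which counts were used. *Acadvl*, for very long chains, had 1.13 (limma adjusted p = 0.174) and *Acads*, for short chains, 0.74 (limma adjusted p = 0.428). *Hadh* had 0.59 and *Echs1* 0.56, with limma adjusted p values of 0.151 and 0.283. Thus the called dehydrogenases were those of long and medium chains, and the difference between these and the other 2 dehydrogenases was not tested.

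**Figure D3:**
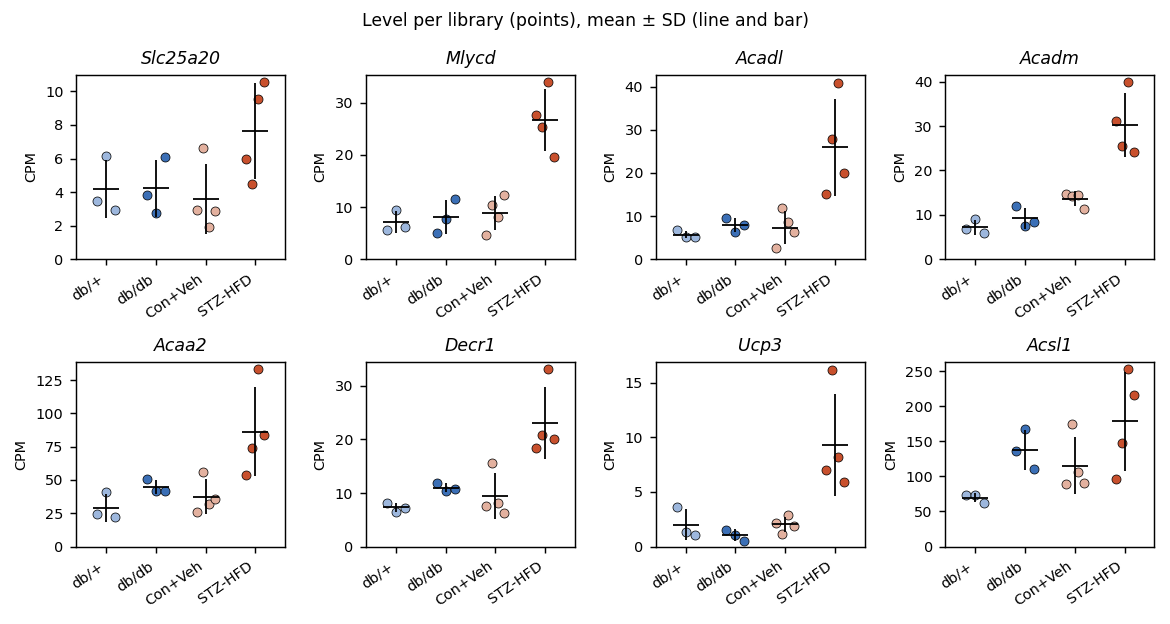
CPM (linear axes from 0) in each library for the 7 called genes and for *Acsl1*, with the mean (line) and SD (bar) of the 3 db/+, 3 db/db, 4 Con+Veh and 4 STZ-HFD libraries. STZ-HFD points lie above all Con+Veh points for *Mlycd*, *Acadl*, *Acadm*, *Decr1* and *Ucp3* but not for *Slc25a20*, *Acaa2* or *Acsl1*.

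The auxiliary enzymes handle double bonds, release free fatty acids or act in peroxisomes, and their median log2 fold change in STZ-HFD, 0.28, was the lowest of the 5 roles. Of the 8, 7 were positive and 1 was called, against 1.30% of all genes called higher. *Decr1* (ENSMUSG00000028223, chromosome 4 from 15917240 to 15945507) encodes the mitochondrial 2,4-dienoyl-CoA reductase that prepares polyunsaturated chains. It was at 18.4, 20.9, 33.1 and 20.1 CPM in STZ-HFD and 7.50, 15.6, 8.23 and 6.30 CPM in Con+Veh. In db/db it was at 11.9, 10.4 and 10.7 CPM and in db/+ at 8.10, 6.54 and 7.27 CPM. Neither pair of groups overlapped. The log2 fold change was 1.56 (SE 0.25, limma adjusted p = 0.00458, the smallest among the members) in STZ-HFD and 0.60 (SE 0.26, limma adjusted p = 0.198) in db/db.

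The enoyl-CoA isomerase genes *Eci1* and *Eci2* had log2 fold changes of 0.56 and 0.25 in STZ-HFD and -0.15 and 0.15 in db/db. The thioesterase genes *Acot2* and *Acot13* had 0.31 and 0.02 in STZ-HFD, and for *Acot13* the 95% interval ran from -0.41 to 0.44. Of the peroxisomal enzymes, *Hsd17b4* had 0.61, *Acaa1a* 0.24 and *Ehhadh* -0.47, the last at 0.963 to 3.50 CPM in STZ-HFD. No limma adjusted p among these 7 genes was under 0.28 in STZ-HFD. *Acaa1a* was the 1 member whose db/db libraries all lay below the db/+ libraries (4.79 ± 0.35 against 6.76 ± 1.99 CPM, n = 3, limma adjusted p = 0.342), against 11.7% of all genes.

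Electron transfer links the first dehydrogenation to the respiratory chain, and the uncoupling proteins are inner membrane carriers of the same organelle. *Ucp3* (ENSMUSG00000032942, chromosome 7 from 100472990 to 100486432), which is known from skeletal muscle and brown fat, was at 6.99, 16.1, 8.17 and 5.89 CPM in STZ-HFD and 2.15, 1.18, 2.91 and 1.85 CPM in Con+Veh. The db/db libraries had 1.53, 1.09 and 0.471 CPM and the db/+ libraries 3.63, 1.32 and 1.01 CPM. STZ-HFD lay above every other library, and the db groups overlapped at a level close to Con+Veh. For *Ucp3* the log2 fold change was 1.83 (SE 0.45, limma adjusted p = 0.032) in STZ-HFD and -0.82 (SE 0.58, limma adjusted p = 0.429) in db/db. In the transcript table *Ucp3* was at only 0 to 51.5 estimated counts per library, so that table gave little on it.

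*Ucp2*, which lies 6904 bases beyond *Ucp3* and is known from many tissues including immune cells, did not share this pattern. It was at 77.6 ± 25.7 CPM in Con+Veh and 75.1 ± 14.04 CPM in STZ-HFD (n = 4), with a log2 fold change of -0.44 (95% interval -0.92 to 0.04, limma adjusted p = 0.369), and at 105 ± 31.9 and 121 ± 45.6 CPM in db/+ and db/db (n = 3). The macrophage markers, 7 genes, were all negative in STZ-HFD (3 called lower, against 1.31% of all genes). Their part in the *Ucp2* value was not tested. The flavoprotein genes *Etfa* and *Etfb* and the oxidoreductase gene *Etfdh* had log2 fold changes of 0.57, 0.78 and 0.66 in STZ-HFD and 0.16, -0.28 and 0.16 in db/db, none with a limma adjusted p under 0.17.

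Ketone use by a tissue needs *Bdh1*, *Oxct1* and *Acat1*, which turn 3-hydroxybutyrate into acetyl-CoA. No ketone gene was called in limma's test of either model. All 3 had positive log2 fold changes in both models. In STZ-HFD all 3 had an unadjusted p under 0.05, against 8.34% of all genes higher. *Acat1* (ENSMUSG00000032047, chromosome 9 from 53580522 to 53610382), the acetoacetyl-CoA thiolase, was at 23.3, 38.1, 37.2 and 35.7 CPM in STZ-HFD and 22.4, 22.4, 26.4 and 15.1 CPM in Con+Veh. It was at 21.4, 13.4 and 14.9 CPM in db/db and 14.4, 11.1 and 12.2 CPM in db/+. Only STZ-HFD replicate 1 fell into the Con+Veh range. For *Acat1* the log2 fold change was 0.70 (SE 0.22, limma adjusted p = 0.0938) in STZ-HFD and 0.38 (SE 0.26, limma adjusted p = 0.409) in db/db.

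*Oxct1* (ENSMUSG00000022186, chromosome 15 from 4026383 to 4155344), whose enzyme activates acetoacetate and is the committed step of ketone use, was at 12.7, 12.5, 31.7 and 19.9 CPM in STZ-HFD and 10.5, 18.3, 11.9 and 17.8 CPM in Con+Veh. The db/db libraries had 17.1, 13.5 and 18.4 CPM and the db/+ libraries 11.2, 11.7 and 10.9 CPM. The db groups did not overlap, as for 14.1% of all genes, while the other groups did. The log2 fold change was 0.60 (SE 0.26, limma adjusted p = 0.238) in STZ-HFD and 0.51 (SE 0.28, limma adjusted p = 0.309) in db/db. For *Bdh1* it was 0.83 and 0.37, on 1.21 to 5.18 CPM over all libraries.

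The response of each member was also compared between the models directly. It was larger in STZ-HFD for 28 of the 32 members, against 48.5% of all genes, but in limma's test no difference reached an adjusted p under 0.05, against 1.77% of all genes. At an unadjusted p under 0.05 there were 12, against 17.3%, and all 12 were larger in STZ-HFD, against 8.35%. The smallest adjusted p was that of *Ucp3* (difference of 2.66, SE 0.73, limma adjusted p = 0.0694), which DESeq2 called. For *Slc25a20* the difference was 1.71 and for *Mlycd* 1.39, with limma adjusted p values of 0.132 and 0.111. For *Acsl1*, whose log2 fold changes were 0.95 and 0.94, it was -0.02 (SE 0.36), and for *Oxct1* it was 0.08 (SE 0.39). The cohorts differed in age, genotype, diet and injection, so the models cannot be told apart from their cohorts.

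Skeletal muscle markers were higher in STZ-HFD and lower in db/db, as given above, so the fits were repeated with the muscle score as a covariate. The score was 8.01 to 8.39 in Con+Veh and, in order of replicate, 8.24, 9.46, 9.54 and 9.30 in STZ-HFD. Score and group thus largely went together in that cohort, and the fit separates them poorly there. In STZ-HFD the median of the members went from 0.76 to 0.33, 10 of 32 signs changed, and only *Decr1* stayed called (log2 fold change 1.44, limma adjusted p = 0.029). *Mlycd* and *Acadl* kept log2 fold changes of 1.43 and 1.40, with limma adjusted p values of 0.0699 and 0.0736. *Acaa2* went to 0.79, *Acadm* to 0.69, *Slc25a20* to 0.97 and *Ucp3* to 1.20, none called. *Acadvl* went from 1.13 to -0.003 and *Hadha* from 0.85 to 0.22. In db/db the same covariate raised the median from 0.16 to 0.46 with 9 sign changes, and *Acsl1* (1.25, limma adjusted p = 0.0226) and *Acaa2* (1.16, limma adjusted p = 0.0206) were called. Among all 16915 genes this fit called 492 higher in db/db and 267 higher in STZ-HFD, where the fit without the covariate called 208 and 220.

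**Figure D4:**
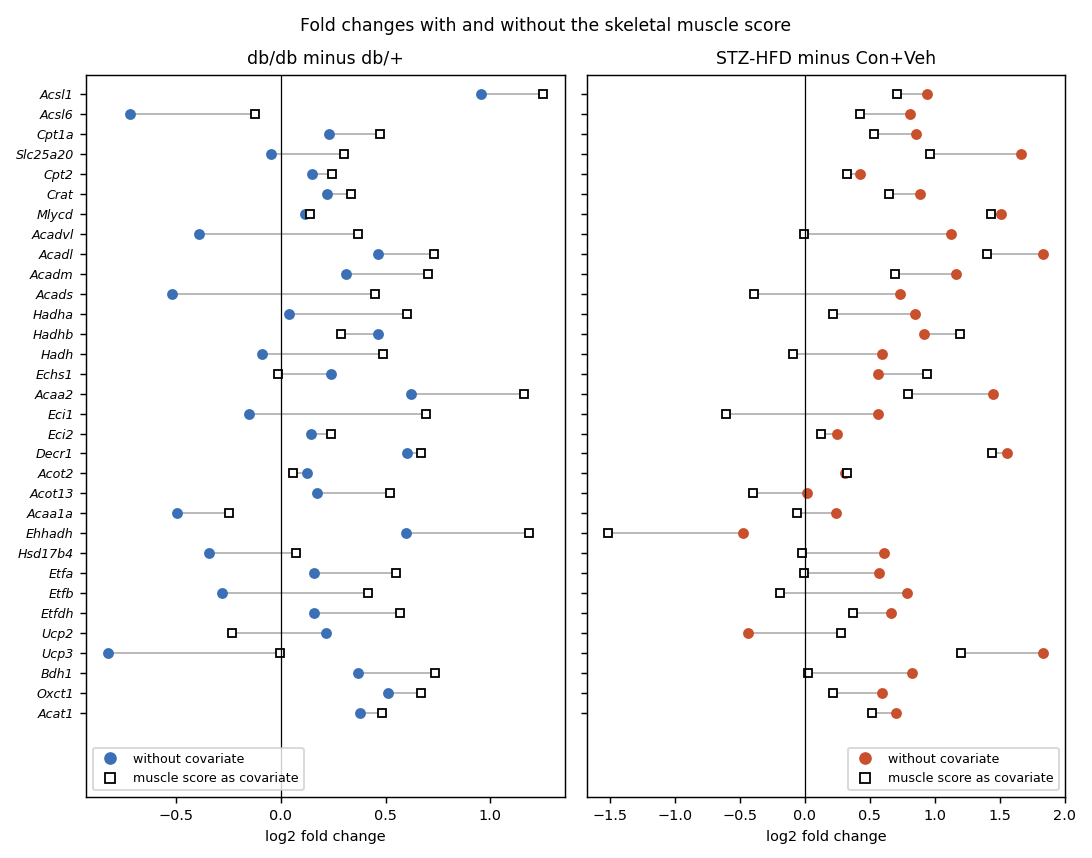
Log2 fold changes of the 32 genes without (filled circles) and with (open squares) the mean log2 CPM of 16 skeletal muscle genes as a covariate, for db/db (left) and STZ-HFD (right). The median moves from 0.16 to 0.46 in db/db and from 0.76 to 0.33 in STZ-HFD, while *Mlycd*, *Acadl* and *Decr1* stay at 1.40 or above in STZ-HFD.

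STZ-HFD replicate 1 was the library of its group with the lowest summed muscle markers (10887 CPM), was the shallowest and had the second lowest quality weight. Its single muscle markers did not match Con+Veh, with 4 of the 16 above all Con+Veh libraries, 6 below and 6 within. *Myh7*, the slow myosin gene, was at 452 CPM in it against 112 to 276 CPM in Con+Veh, and *Ckm* was at 90.8 CPM against 153 to 242 CPM. Of the 4 brown adipocyte markers, it had the highest *Ucp1* (1.23 CPM), *Cidea* (4.15 CPM) and *Elovl3* (2.84 CPM) of its group. It had the lowest *Cox8b* (52.5 CPM), and its summed level of these markers (60.8 CPM) was also the lowest of the group. Leaving out this library and Con+Veh replicate 1, which had the lowest weight, gave 8 called members where 320 of 16082 genes were called higher, an alternative added after the data were seen.

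Adipocyte markers had positive log2 fold changes for 7 of 8 genes in db/db and 8 of 8 in STZ-HFD, with overlapping summed levels in both models. The summed level of 8 genes including *Adipoq* was 399 to 718 CPM in db/db against 229 to 481 CPM in db/+. In STZ-HFD it was 985 to 1171 CPM, against 459 to 995 CPM in Con+Veh. Of these genes 4 were called higher in db/db, against 1.23% of all genes, and 1 in STZ-HFD, against 1.30%. With an adipocyte score as a covariate, *Decr1* alone was called in STZ-HFD and no member in db/db, in a fit that called 19 of 16915 genes higher in STZ-HFD and 0 in db/db. The log2 fold changes of the other called members in STZ-HFD were then 1.03 to 1.68. The brown adipocyte markers *Cox8b*, *Cidea* and *Elovl3* had positive log2 fold changes in STZ-HFD, with *Cox8b* called (29.2 ± 12 to 86.2 ± 44 CPM, n = 4, limma adjusted p = 0.0109). *Ucp1*, the defining gene of brown fat, was at or near 0 and failed the filter, at 1.23 CPM in STZ-HFD replicate 1, at 0 in the other 3 STZ-HFD libraries and at most 0.0416 CPM in the other groups. *Cox8b* is also expressed in muscle. The part of fat cells in the results was not tested beyond these values.

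Compared per length, the members differed widely within each group, and the order was much alike among groups. In Con+Veh, *Acot13* (38.2 ± 7.06 RPKM) and *Acaa2* (24.6 ± 8.71 RPKM) were highest, within their joint spread (SD, n = 4). *Etfb*, *Crat*, *Ucp2*, *Acsl1* and *Hadha* followed between 15.9 and 10.5 RPKM, and neighbours in this run did not differ beyond their spread. In STZ-HFD *Acaa2* (56.9 ± 22.1 RPKM) and *Acot13* (39.9 ± 13.4 RPKM) were again highest. *Acaa2* and *Acot13* were also the first pair in db/+ and db/db. *Cpt1b* was lowest in all groups in the gene table, and *Bdh1*, *Acsl6* and *Ehhadh* were among the 6 lowest members in every group. This order holds for the gene table, and *Acaa2* itself had 29284 gene counts but 2343 estimated transcript counts over all libraries. The carrier *Slc25a20* had 0.74 ± 0.43 RPKM in Con+Veh.

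The wider pathway was read from further genes. Of 29 other oxidation genes, among them the peroxisomal oxidases and other synthetases, 22 were tested and none was called in either model by limma. Of all genes, 1.30% were called higher in STZ-HFD and 1.23% in db/db. At an unadjusted p under 0.05, 5 of the 22 were higher and 1 lower in STZ-HFD, against 8.34% of all genes higher and 1614 of 16915 lower. In db/db 6 were higher and 4 lower, against 10.7% and 10.4%. The median of these 22 genes in STZ-HFD was 0.16, while that of the members was 0.76. Both lists were chosen with earlier results of these data known, so the 2 medians are description only. Of 9 other ketone genes, 8 were tested and 1 was called, the monocarboxylate transporter gene *Slc16a7*, which rose from 1.70 ± 0.25 to 5.33 ± 0.84 CPM in db/db (n = 3, log2 fold change 1.63, limma adjusted p = 0.0208). The list as a whole did not rise there, with 5 of the 8 negative and a median of -0.30. In STZ-HFD 3 of the 8 were negative, with a median of 0.095.

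Of 14 tested regulators of the pathway and their known targets, 4 rose in STZ-HFD and 2 in db/db, where 1.30% and 1.23% of all genes did. *Fabp3*, a fatty acid-binding protein gene of heart and muscle, rose from 4.72 ± 1.3 to 47.2 ± 17 CPM in STZ-HFD (n = 4, log2 fold change 3.26, limma adjusted p = 9.26e-06). *Pdk4*, whose kinase turns off pyruvate dehydrogenase, rose from 16.1 ± 4.9 to 117 ± 38 CPM (2.80, limma adjusted p = 7.43e-05). *Acacb*, which encodes the acetyl-CoA carboxylase that makes malonyl-CoA at the mitochondrion, rose there too (1.39, limma adjusted p = 0.0114), together with *Mlycd*, whose enzyme removes it. *Cd36*, a fatty acid uptake gene, rose in both models, by 1.12 in STZ-HFD and 2.16 in db/db on the log2 scale (limma adjusted p = 0.0244 and 0.00784), and *Plin2*, a lipid droplet coat gene, rose in db/db (1.01, limma adjusted p = 0.0285). *Ppara* had 1.05 and 0.26 in STZ-HFD and db/db, *Ppargc1a* 0.94 and 0.21, and *Esrra* 0.66 and -0.16, none called. *Pparg* had 0.34 and 1.00, *Ppargc1b* 0.59 and -0.77, and *Ppard* -0.40 and -0.58, also none called. The regulators thus did not share 1 direction. All values in this paragraph are from the fit without the muscle covariate.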

How the data were processed

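RNA of pooled caudal discs from 14 mice was sequenced after cDNA amplification. The authors aligned reads to Ensembl release 101 (GRCm38) with STAR and deposited whole-number gene counts from featureCounts, not normalized, and estimated counts per transcript from Salmon. The deposited gene table repeats 287 identifiers with equal values, used once. Of the 55487 genes, 55227 were found in GENCODE M21, which gave positions and exon lengths. With R 4.3.3, edgeR 4.0.16 and limma 3.58.1, genes above 1 CPM in at least 3 libraries were fitted with voomWithQualityWeights, 1 mean per group over all 14 libraries, after the study's methods. DESeq2 1.42.0 and edgeR's quasi-likelihood test were alternatives, with others on scaling, filters, covariates, the transcript totals (rounded), GC content and left-out libraries. The tests were tried on simulated counts. Marker scores used a prior count of 2. All samples carry 1 batch label. Values per library are given for called members and, in the ketone group, for the member of smallest p in each model. Called genes of other lists are named. Members and lists were chosen with earlier results of these data known. Each library is 1 mouse.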

Additional observations from a re-analysis of the deposited data

Results flagged for a closer look

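In 7 of 64 groups of 4 libraries examined for the members, 1 library stood apart from the other 3 by Dixon's 95% criterion, where chance gives about 1 in 20. In Con+Veh, *Acsl6* was at 9.91 CPM in replicate 2 against 4.10 to 4.997 CPM in the others. *Acadm* was at 11.2 CPM in Con+Veh replicate 4 against 14.3 to 14.8 CPM, and *Echs1* was at 5.87 CPM in the same library against 12.5 to 13.4 CPM. In STZ-HFD, *Decr1* was at 33.1 CPM in replicate 3 against 18.4 to 20.9 CPM, and *Acot13* was at 44.5 CPM in replicate 4 against 23.04 to 26.3 CPM. STZ-HFD replicate 1 stood apart for *Ehhadh*, at 3.50 CPM against 0.963 to 1.34 CPM, and for *Acat1*, at 23.3 CPM against 35.7 to 38.1 CPM.

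Of the 14 tested regulators and known targets, 3 had responses that differed between the models in limma's test of the difference. At the same adjusted p under 0.05 this held for 1.77% of all genes and for 8 of the 16 skeletal muscle markers. The log2 fold change in STZ-HFD exceeded that in db/db by 2.11 for *Pdk4* (limma adjusted p = 0.0251), by 2.28 for *Fabp3* (limma adjusted p = 0.0258) and by 2.02 for *Acacb* (limma adjusted p = 0.0236).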

How the results depend on the processing

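The number of members called higher in STZ-HFD (7) was 0 with edgeR's quasi-likelihood test, 0 with voom without quality weights, 3 with no filter on low counts, 1 with the muscle covariate, 1 with the adipocyte covariate, 4 with transcript counts and 11 with no minimum fold, and 0 to 8 when a library was left out. Same-numbered mice were different animals and their deviations did not move together (mean r of -0.0911 and -0.111), and with a replicate block the count was 0 (2 of all 16915 genes), while 1 member, *Ucp3*, was called lower in db/db (688 of all genes). The log2 fold changes of the 7 members under the block were 1.24 to 1.97 in STZ-HFD. The db/db count (0) was 1 with no filter (357 of 46963 genes called higher) and 2 with the muscle covariate (492 of 16915). It was 0 in every fit that left out a library. With the muscle covariate the median of the members was 0.46 (db/db) and 0.33 (STZ-HFD). It was 0.11 to 0.26 and 0.65 to 0.77, respectively, when a library was left out. DESeq2 found 1 member whose response differed. Of the 32 members, 9 changed sign in db/db with the muscle covariate and 10 with the adipocyte covariate. Among the members past the adjusted threshold in STZ-HFD and the 2 ketone genes shown by library, the db/db values that changed sign were *Slc25a20* (0.014 with edgeR, 0.035 with DESeq2, 0.0060 without quality weights, 0.10 with the replicate block, 0.30 with the muscle and 0.15 with the adipocyte covariate), *Acsl1* and *Mlycd* with transcript counts (-0.16 and -0.39), and *Acadl* and *Acat1* with the adipocyte covariate (-0.040 and -0.082). Leaving out a library gave -0.34 to 0.33 for *Slc25a20*, -0.18 to 0.40 for *Mlycd* and -0.13 to 0.23 for *Hadha*. The causes were not tested. Depth was thinnest for *Cpt1b* (2 to 46 counts per library). Among others it was also low for the called *Ucp3* (30 to 469) and *Slc25a20* (41 to 387). The same held for *Ehhadh* (28 to 113), *Bdh1* (38 to 230), *Acads* (32 to 235) and *Acadvl* (44 to 277).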
